A study of Homo sapiens with 4 samples.

Results

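The 8 genes described here encode parts of the cell death machinery: the inhibitor CFLAR, the adaptor FADD, the death receptors FAS, TNFRSF10A and TNFRSF10B, and the initiator caspases CASP2, CASP8 and CASP9. They were taken by name, and every peak that a deposited m6A list assigns to one of them was used, whatever its strength. That gave 31 of the 22448 peaks listed for shNC and 31 of the 24626 listed for shALKBH5. The lists come from RPMI-8226, a multiple myeloma line long kept in culture, transduced with lentivirus carrying the hairpin labelled shNC or a hairpin against ALKBH5, an eraser of N6-methyladenosine (m6A). In m6A-seq, poly(A) RNA is fragmented and pulled down with an antibody against m6A (IP), and a peak is a stretch where the IP holds more reads than the unselected RNA (input). Each list rests on 1 IP and 1 input library, 4 libraries in all, and all cells were transduced. Neither the number of hairpins per target nor any cloning of the cells is given in the sources used here. With no replicate, no test between conditions exists, and every value below compares 1 pair of libraries with another.

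As background, death ligands such as TRAIL and FAS ligand bring their receptors together, the receptors recruit FADD through death domains, and FADD recruits caspase-8 through death effector domains, where the caspase activates itself. CFLAR encodes c-FLIP, a relative of caspase-8 without protease activity that enters the same complex and restrains it. Caspase-9 is the initiator of the mitochondrial route, and caspase-2 is activated in a complex with CRADD and PIDD1. The mark m6A is mostly placed in long internal exons and around stop codons, within the short consensus DRACH (A, G or T, then A or G, then AC, then A, C or T), and it can affect how long an RNA lasts and how well it is translated.

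All 8 genes had peaks in both lists, against a background of 83.0% of the 12792 genes with any peak. A peak is said to have a partner when at least 1 of its bases lies in a peak of the other list. Of the member peaks, 2 of 31 in the shNC list (6.45%, exact 95% binomial interval 0.791 to 21.4%) and 3 of 31 in the shALKBH5 list (9.68%, 2.04 to 25.8%) had no partner. Over all peaks, the shares without a partner were 12.6% for shNC and 19.8% for shALKBH5, and both lie within these intervals, which cover counting error only. Of these 5 peaks, CFLAR held 4 and FADD 1. FAS, TNFRSF10A, TNFRSF10B, CASP2, CASP8 and CASP9 had 0 in either list. A stricter rule, with 50% of the bases of each peak shared, left 5 member peaks without a partner in each list and 22.2% and 29.1% of all peaks. The depth of the libraries is unknown, since the lists hold no read counts.

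Folds are the authors' ratio of IP over input within 1 condition, and log10 p is their p-value for the same peak, so a more negative value is a stronger call. Over all peaks, the median fold was 6.54 for shNC and 6.64 for shALKBH5, with a median log10 p of -15.8 and -15.3. The median member peak had a fold of 5.89 with shNC and 5.13 with shALKBH5, and 13 and 10 of 31 lay above their list's median. By p, 14 of 31 member peaks in each list were stronger than the list's median. Coordinates are on hg38 and counted from 1. Of the plasma cell markers, 7 of 10 had a peak in each list, among them SDC1, PRDM1, IRF4 and XBP1, while TNFRSF17, SLAMF7 and CD79A had none. T and NK cell markers had 0 of 8 and 1 of 8, myeloid markers 2 of 6 in each list, and stromal markers 2 of 5 and 1 of 5. A peak is not an expression level, so neither the amount of any RNA nor the knockdown of ALKBH5 was checked here.

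CFLAR, the inhibitor (ENSG00000003402, chromosome 2, RefSeq span 201116164 to 201176687, plus strand), carried 16 shNC and 15 shALKBH5 peaks. Only 3 genes of the shNC list, CFLAR included, had 16 or more peaks, and 7 genes of the shALKBH5 list had 15 or more. The other genes with at least 15 shNC and 14 shALKBH5 peaks were AHNAK, with 18 and 19, and C4orf50, with 16 and 17. No gene shared all 4 of CFLAR's numbers, which were its peaks in each list and its peaks without a partner in each list. The CFLAR peaks covered 4695 bases with shNC and 5294 with shALKBH5. They fell into 17 places, of which 13 were in both lists, 2 with shNC alone and 2 with shALKBH5 alone.

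**Figure D1:**
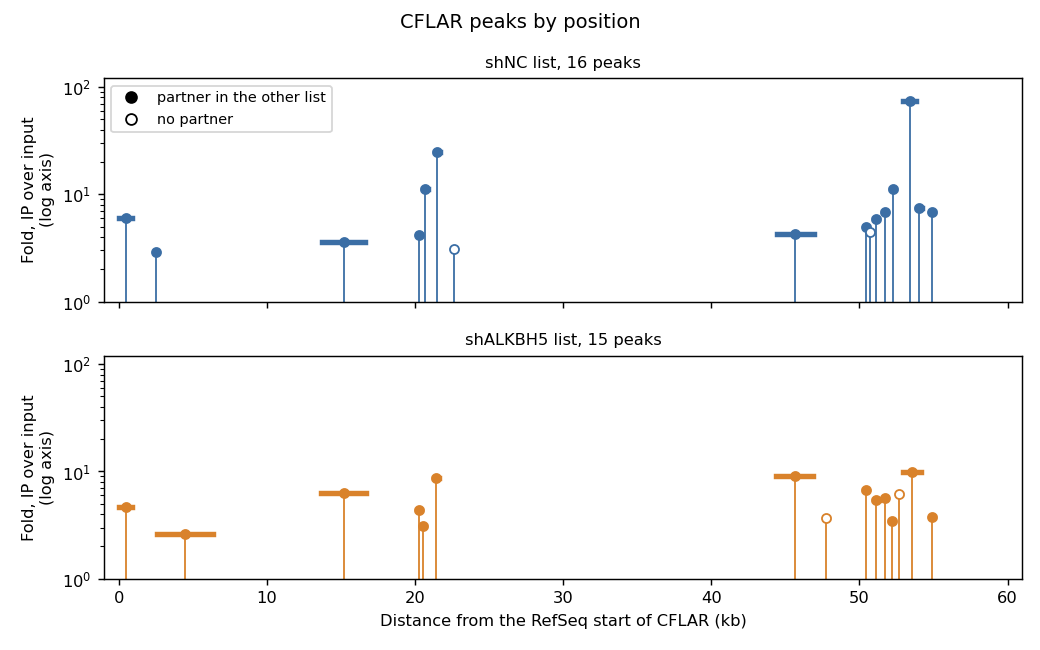
CFLAR peaks along the gene, with distance from the RefSeq start in kb on the horizontal axis and fold of IP over input on a log axis. The top panel shows the 16 shNC peaks and the bottom panel the 15 shALKBH5 peaks. Thick lines run from the first to the last base of a peak, introns included, and open circles mark the 2 peaks of each list with no partner. The peak with the highest fold stands at 73.6 with shNC and at 9.95 with shALKBH5, in the same place.

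At the start of CFLAR, a peak of 3 blocks and 511 bases had the same borders in both lists, from 201116164, the first base of the RefSeq gene, to 201117100. Its fold was 5.99 for shNC and 4.69 for shALKBH5, with log10 p of -11.3 and -13.9. The next place shows how little an overlap can mean. The shNC peak there was 91 bases long (201118658 to 201118748) with a fold of 2.92 (log10 p -3.96), and it shared 1 base with the shALKBH5 peak, which began at 201118748, ran over 3 blocks to 201122503 and had a fold of 2.59 (log10 p -5.36.) RefSeq places an alternative start of CFLAR at 201118716, inside the shNC peak. A further alternative start, at 201132781, lay in a peak of both lists that joined exons across introns. That peak had a fold of 3.57 over 241 bases for shNC and 6.33 over 391 bases for shALKBH5, with log10 p of -32.5 and -50.7, the latter the strongest CFLAR call of its list.

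Short sequences at the edges of these start peaks are shown with any match to the consensus. Only these edges were searched, so they do not tell where in a peak the signal sits. RefSeq holds 15 start windows for the members in GRCh38.p14, each with 250 bases before and 50 after a start, and 3 of them were touched by a peak of the gene: these 2 of CFLAR and the 1 of FADD. Among the 12088 windows of all genes with a peak in either list, 21.2% were touched. The table has no window for TNFRSF10A, TNFRSF10B or the CFLAR start at 201116164, which therefore are not among the 15. Stretches of 30 bases on the gene's strand follow, 5′ to 3′, with a DRACH match in capitals where there is one.
CFLAR, chr2:201118736-201118765, just after the start at 201118716: cggcgaagccacctgttgatgctttTGACT
CFLAR, chr2:201132779-201132808, from the first base of the peak block around the start at 201132781: tcagAAACTgttagttggcaaaggatgtac
FADD, chr11:70203311-70203340, the first bases of its start peak: ctgtagtgaatcaggcaccggagtgcaggt
In the first stretch, the shNC peak ends and the shALKBH5 peak begins at 201118748, so the match at 201118761 to 201118765 lay in the shALKBH5 peak and outside the shNC peak. In the second, the match at 201132783 to 201132787 lay in the peak of both lists. The FADD stretch held no match, and the rest of the 179 bases of that peak was not searched. The search read the gene's strand only, and among all 35116 RefSeq start windows the same stretches held a match in 32.6%, 33.2% and 32.6%, so a match is a common event and marks no site.

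Between 13 and 23 kb from its start, CFLAR had 5 peaks with shNC and 4 with shALKBH5. The first of these is the peak over the alternative start described above. At 201136374 to 201136554 the fold was 4.14 for shNC, and the shALKBH5 peak (201136314 to 201136584) had 4.38, with log10 p of -7.50 and -7.54. These are the most alike of the CFLAR values that differ in borders. Just downstream, the shNC peak at 201136704 to 201137034 had a fold of 11.2 (log10 p -6.02), and the shALKBH5 peak at 201136644 to 201136824 had 3.09 and -3.77, with 121 shared bases. At 201137514 to 201137844 the shNC fold was 24.5 with a log10 p of -12.7, and at 201137454 to 201137784 the shALKBH5 fold was 8.71 with -13.4. In the shNC list this place stood higher by fold than by p, and in the shALKBH5 list both were nearer the middle: the fold exceeded 94.2% of shNC peaks and 60.2% of shALKBH5 peaks, and the p was stronger than 45.0% and 47.1%. IMPDH1P10, a pseudogene on the opposite strand, has a listed peak on 238 of the same bases with folds of 24.5 and 7.24. Strand is not stated for the libraries, so CFLAR and IMPDH1P10 cannot be told apart here. The last place of this stretch, at 201138744 to 201138834, was listed with shNC alone, with a fold of 3.12 (log10 p -2.73), weaker than all but 1.35% of the shNC list. The nearest shALKBH5 peak lay 959 bases away.

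Between 44 and 49 kb, a peak of 2 blocks had a fold of 4.28 (log10 p -9.77) with shNC (201160591 to 201163063) and a fold of 9.10 (log10 p -31.2) with shALKBH5 (201160531 to 201163033). The blocks shared 391 bases, which is 92.9% of the shNC and 86.7% of the shALKBH5 peak. At 201163848 to 201164028, a peak was listed with shALKBH5 alone, with a fold of 3.67 (log10 p -7.81), and the nearest shNC peak was 784 bases away.

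The densest stretch lay 50 to 56 kb from the start, where CFLAR had 8 peaks with shNC and 7 with shALKBH5. Here the shNC list gave its highest CFLAR fold, 73.6 over 841 bases (201169128 to 201169968), with a log10 p of -45.1, also its strongest CFLAR call. A second shNC peak, at 201170058 to 201170358, had a fold of 7.43 (log10 p -22.5.) In the shALKBH5 list, both were covered by 1 peak of 1201 bases (201169128 to 201170328), with a fold of 9.95, again the highest of CFLAR in that list, and a log10 p of -34.1. A single shALKBH5 value stands over the ground of 2 shNC values, so these folds were taken over different bases. How far that bears on the values was not tested. Within its own list, the fold of 73.6 exceeded 99.7% of peaks and the fold of 9.95 exceeded 65.2%, and by p they were stronger than 70.5% and 66.9%.

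Around this widest peak, the remaining CFLAR places had lower folds. From 5′ to 3′, the peak near 201166518 had 4.97 for shNC and 6.70 for shALKBH5, with log10 p of -5.26 and -6.14. The peak near 201167178 had 5.89 and 5.38, with -22.7 and -28.6, and AC007283.1, on the same strand, had listed peaks on some of its bases with folds of 5.54 and 4.9. At 201167748 to 201167988, with the same borders in both lists, the folds were 6.84 and 5.62 and the log10 p -10.7 and -13.3. The peak near 201168318 had 11.2 for shNC and 3.47 for shALKBH5, with log10 p of -12.0 and -7.99. At the 3′ edge of the listed signal, from 201170988, the folds were 6.80 and 3.80 and the log10 p -10.5 and -4.66. In this stretch the shNC fold was the larger number at most shared places, whereas p was stronger with shALKBH5 at some of them and weaker at others, so the values follow no single order. The 2 places listed once were a shNC peak at 201166788 to 201166998, with a fold of 4.46 (log10 p -3.13), which lay 89 bases from an shALKBH5 peak, and an shALKBH5 peak at 201168768 to 201168948, with 6.18 and -6.31, which lay 179 bases from the shNC peak with the fold of 73.6.

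FADD, the adaptor between receptor and caspase (ENSG00000168040, chromosome 11, RefSeq span 70203296 to 70207390, plus strand), had 1 peak with shNC and 2 with shALKBH5. The shared peak lay near the gene end and was 921 bases long in both lists, at 70206173 to 70207093 for shNC and 70206203 to 70207123 for shALKBH5. Its fold was 11.7 for shNC and 10.6 for shALKBH5, with log10 p of -913 and -619, the strongest calls of any member in either list and stronger than 99.0% and 98.4% of all peaks. AP000879.1, on the opposite strand, has listed peaks over 714 of the shNC and 744 of the shALKBH5 bases, with folds of 11.7 and 10.7 and log10 p of -912 and -620, so the reads of FADD and AP000879.1 cannot be told apart without strand. The other FADD peak, listed with shALKBH5 alone, lay 15 bases from the gene start, at 70203311 to 70203489, with a fold of 2.51 (log10 p -14.1.) It was the only start peak of the 8 genes without a partner, and the nearest shNC peak was the one at the FADD end, 2683 bases away.

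**Figure D2:**
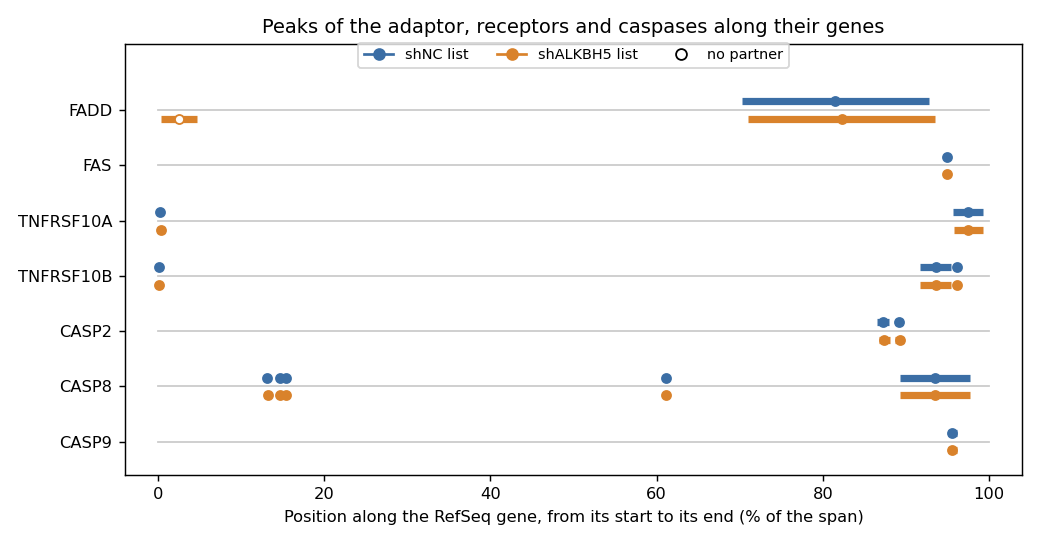
Peaks of the 7 other genes along their RefSeq spans, from start to end in percent of the span, blue for the shNC list and orange for the shALKBH5 list. Lines run from first to last base of a peak and circles mark its middle. Each peak of FAS, the TNFRSF10 genes and the caspases has a partner, and the open circle is the FADD start peak listed with shALKBH5.

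FAS, the receptor of FAS ligand (ENSG00000026103, chromosome 10, RefSeq span 88964050 to 89017059), had a single peak with the same 300 bases in both lists, 89014228 to 89014527. The fold was 9.17 for shNC and 9.42 for shALKBH5, and the log10 p was -291 and -489. This place therefore ranked high by p in both lists, above 94.4% and 97.5% of peaks, with folds nearer the middle, above 62.8% and 63.5%.

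TNFRSF10A and TNFRSF10B encode the death receptors for TRAIL and lie in 1 cluster on chromosome 8, both on the minus strand. TNFRSF10A (ENSG00000104689, RefSeq span 23190452 to 23225102) had its strongest peak near the end of the gene. It ran from 23190720 to 23191942 for shNC, where its fold was 13.3 and its log10 p -377, and to 23191912 for shALKBH5, where they were 13.9 and -382. Among the members, only CFLAR had higher folds with shNC, and no member had a higher fold with shALKBH5. The folds of this TNFRSF10A peak differed little between the lists. At the TNFRSF10A start, the shNC peak covered 210 bases (23224917 to 23225126) with a fold of 2.40 (log10 p -6.94.) The shALKBH5 peak at the same start covered 329 bases (23224798 to 23225126) with a fold of 3.44 (log10 p -15.1.) AC100861.1, on the opposite strand, has an shALKBH5 peak on 69 of those bases, so the reads there cannot be told apart without strand.

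TNFRSF10B (ENSG00000120889, RefSeq span 23020133 to 23069031) had 3 peaks in each list. The strongest joined exons, covered 660 bases with the same borders in both lists (23022352 to 23024214), and had folds of 8.61 for shNC and 8.92 for shALKBH5, with log10 p of -145 and -158. Closer to the gene end, a short peak covered 91 bases with a fold of 1.95 for shNC and 151 bases with 2.37 for shALKBH5, with log10 p of -4.14 and -6.22. Over the TNFRSF10B start, the shNC peak (23068909 to 23069089) had 3.12 and -6.17, and the shALKBH5 peak (23068789 to 23069119) had 4.34 and -11.0. Start peaks of both TRAIL receptors were thus wider in the shALKBH5 list, with the shNC bases lying fully inside, and carried a larger fold and a stronger p there. With 1 pair of libraries per condition, how far such values vary between cultures was not measured.

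CASP8, the initiator caspase recruited by FADD (ENSG00000064012, chromosome 2, RefSeq span 201233463 to 201287711, plus strand), had 5 peaks in each list, and all 5 places were shared. A cluster of 3 began 6889 to 8206 bases from the RefSeq start. The first had a fold of 11.5 (log10 p -68.7) at 201240352 to 201240801 for shNC, and 7.88 and -45.7 at 201240412 to 201240861 for shALKBH5. The next, with the same borders in both lists (201241280 to 201241519), had folds of 4.36 and 5.13, with log10 p of -10.1 and -10.8. At 201241669 to 201241998, again with the same borders, the folds were 6.24 and 5.91 and the log10 p -25.5 and -25.4, nearly the same numbers.

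Farther along CASP8, the peak ending at 201266742 had a fold of 3.03 (log10 p -35.6) for shNC and 2.29 and -25.1 for shALKBH5. The strongest CASP8 peak by p lay 1227 bases from the gene end, joined 3 exon blocks of 12, 502 and 26 bases between 201281904 and 201286484, and had the same borders in both lists. Its fold was 5.38 for shNC and 4.97 for shALKBH5, with log10 p of -134 and -157. CFLAR and CASP8 lie in 1 cluster on chromosome 2, with CASP10 between them.

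CASP2 (ENSG00000106144, chromosome 7, RefSeq span 143288351 to 143307696, plus strand) had 2 neighbouring peaks in each list, all with low folds. The first, at 143305093 to 143305362 for shNC and 143305123 to 143305392 for shALKBH5, had folds of 2.70 and 4.03 and log10 p of -16.7 and -46.2. The second, from 143305512, had folds of 3.11 and 2.0 and log10 p of -14.8 and -9.00. The pair therefore changed order: the second peak had the higher fold with shNC and the first with shALKBH5. CASP9, the initiator of the mitochondrial route (ENSG00000132906, chromosome 1, RefSeq span 15491401 to 15524912, minus strand), had 1 peak with the same 330 bases in both lists, 15492718 to 15493047, which lay 1317 bases from the gene end. Its fold was 6.66 for shNC and 7.46 for shALKBH5, with log10 p of -170 and -233.

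**Figure D3:**
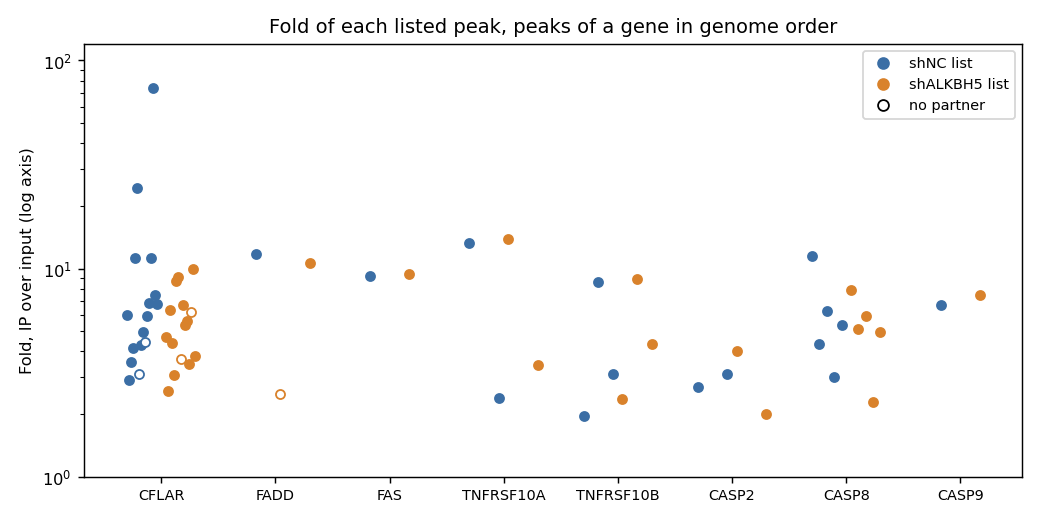
Fold of IP over input, on a log axis, for each peak of the 8 genes, in genome order within a gene, blue for the shNC list and orange for the shALKBH5 list. Open circles are peaks without a partner. Outside CFLAR the folds run from 1.95 to 13.9, and only CFLAR has shNC folds above that, at 24.5 and 73.6.

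By place along the gene, 3 of 31 member peaks with shNC (9.68%) and 4 of 31 with shALKBH5 (12.9%) lay at a gene start, meaning that the 5′ edge came before the RefSeq start or under 500 bp after it. The background among placed peaks was 11.4% and 14.5%, so the members stood near it. At the gene end, under 1000 bp from it, lay 2 peaks in each list (6.45%), those of FADD and TNFRSF10A, against 23.0% for shNC and 22.1% for shALKBH5 over all placed peaks, both above the interval of the members (0.791 to 21.4%). The intervals count peaks of 1 gene as independent, and CFLAR held 16 shNC and 15 shALKBH5 member peaks. Its last peak ended 5490 bases from the gene end with shNC and 5520 with shALKBH5. Without CFLAR, 2 of 15 shNC and 2 of 16 shALKBH5 peaks lay at the gene end. The peaks of FAS, CASP9, TNFRSF10B, CASP8 and CASP2 nearest to the gene end ended 1227 to 2532 bases from the RefSeq end, beyond that limit of 1000 bp. With limits of 1000 bp from the start and 2000 bp from the end, 5 and 6 of 31 member peaks lay at the gene end, against 34.2% and 32.7% of all placed peaks. None of them was a CFLAR peak, so they were 5 of 15 shNC and 6 of 16 shALKBH5 peaks of the other genes. Peaks of more than 1 block, which join exons, numbered 5 (16.1%) and 6 (19.4%), against 17.4% and 17.9%. The same borders in both lists were found for 8 member peaks in each list (25.8%, 11.9 to 44.6%), against 12.5% of shNC and 11.4% of shALKBH5 peaks, with the background of shALKBH5 outside the interval and that of shNC within it. These 8 were 3 of CASP8, 2 of CFLAR and 1 each of FAS, TNFRSF10B and CASP9. Borders differ in coarse steps: among the 18 one-to-one pairs of single-block member peaks, 20 borders differed, and all 20 did so by a multiple of 30 bases within 1 base. The same held for 98.2% of such borders over all genes, so a shift of 30 bases is the smallest step the lists usually show.

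CFLAR and the other 7 genes differed in how fold and p went together within a list. Outside CFLAR, all 15 shNC peaks and all 16 shALKBH5 peaks stood higher in their list by p than by fold, against 56.7% and 56.6% of all peaks. For CFLAR this was so for 5 of 16 shNC peaks and 9 of 15 shALKBH5 peaks. The median CFLAR peak exceeded 46.1% of the shNC list by fold and 41.0% by p, and 41.9% and 35.0% of the shALKBH5 list. For the other 7 genes, the medians were 42.3% by fold and 66.5% by p with shNC, and 39.5% and 66.6% with shALKBH5. The lists hold no read numbers, so the abundance of these RNAs was not examined.

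**Figure D4:**
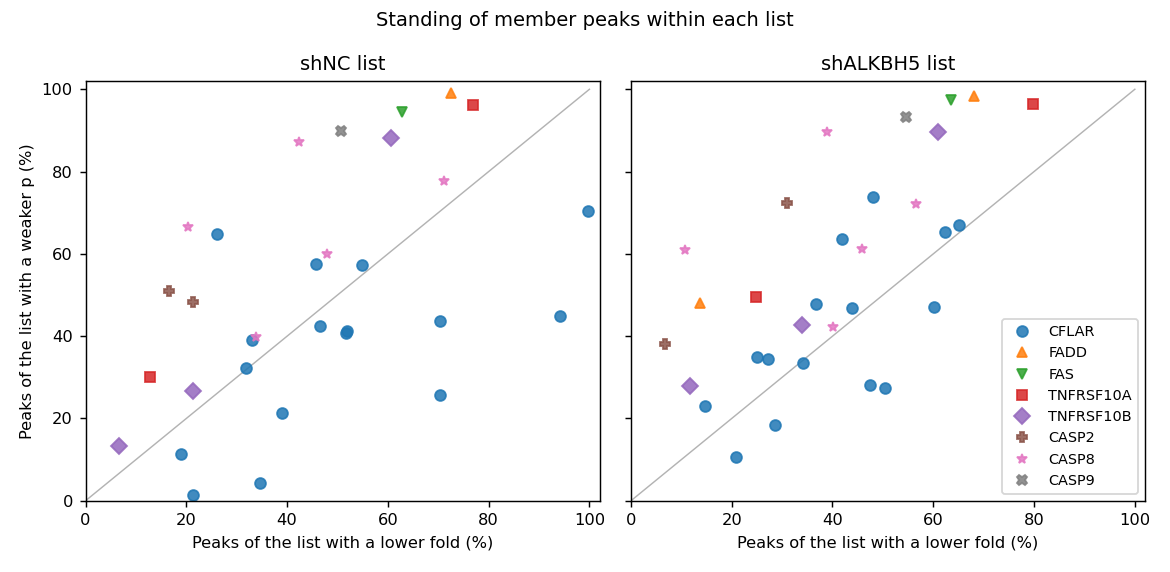
Standing of each member peak within its list: the percent of the list's peaks with a lower fold on the horizontal axis and with a weaker p on the vertical axis, shNC on the left and shALKBH5 on the right. Points above the grey line stand higher by p than by fold. All peaks of the 7 other genes lie above the line, while CFLAR peaks lie on both sides.

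Beyond the 8 genes, a list of 52 further genes of death signalling was followed. Of these, 31 carried a peak, and for 29 both lists had one (93.5% of those with a peak, against the 83.0% over all genes given above), 0 only with shNC and 2 only with shALKBH5. Their peaks numbered 61 and 70, of which 3 (4.92%) and 10 (14.3%) had no partner, beside 12.6% and 19.8% of all peaks. No interval was computed for these small counts, so a difference from the background was not tested. The 2 genes of the shALKBH5 list alone were CRADD and PIDD1, whose products are the adaptor and the scaffold of the complex that activates caspase-2. CRADD had peaks at 93738257 to 93738406 on chromosome 12, with a fold of 13.6 (log10 p -3.29), and at 93850296 to 93850386, with 1.94 and -3.27, stronger by p than only 6.26% and 6.21% of the list. PIDD1 had a peak at its gene end (chromosome 11, 799179 to 799419) with a fold of 3.94 (log10 p -11.5), which shares bases with an shNC peak listed under another gene, and a weak one at 804873 to 804963 with 3.62 and -3.0.

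Among ligands, only TNFSF10, which encodes TRAIL, had a peak, and FASLG, TNF, LTA and TNFSF15 had none. The TNFSF10 peak at the gene end (chromosome 3, to 172506885) had a fold of 28.8 (log10 p -44.7) with shNC and 19.0 and -58.3 with shALKBH5, above every fold of its receptors TNFRSF10A and TNFRSF10B. Of 9 other death and decoy receptors, 4 had peaks, all in both lists. The decoy receptor TNFRSF10C had its highest folds at the gene end, 21.4 for shNC and 32.6 for shALKBH5, with weak log10 p of -5.55 and -8.82. Its peak at the gene start had lower folds, 13.1 and 19.2, and far stronger log10 p, -64.7 and -108. Adaptors and regulators of death complexes had peaks in 10 of 17 genes, 8 of them in both lists. The kinase RIPK1, which joins receptor complexes, had 2 peaks with shNC, with folds of 10.0 and 23.2, and 4 with shALKBH5, with folds of 6.79, 9.66, 7.10 and 13.6, of which the first had no partner. The shALKBH5 peaks with folds of 7.10 and 13.6 both lie within the span of the shNC peak with 23.2. Those folds were therefore taken over different bases, and how far that bears on the values was not tested. Of 9 other caspases and caspase partners, 5 had peaks, all in both lists. CASP10, a close relative of CASP8, had 2 with shNC, 1 of them without a partner, and 1 with shALKBH5. Among inhibitors and genes downstream of caspases, 11 of 12 had peaks in both lists, and the caspase inhibitor XIAP had 1 peak per list, at folds of 13.9 and 13.6.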

How the data were processed

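m6A-seq IP and input libraries were made from poly(A) RNA of transduced RPMI-8226 cells, 1 of each per condition, per the labels' protocols. Tools named by the submitters' processing notes are, with no role or order, BWA 0.7.12, fastp 0.19.11 and HOMER 4.9.1, with build hg38. The sources used here do not give the peak caller or the scaling between IP and input. The authors called peaks on 1 IP and 1 input per condition, per the file headers and labels, and deposited a fold (a ratio of IP over input) for each peak. The authors also deposited a p-value per peak, in the column headed score. Further columns deposited by the authors, the logarithms to base 10 of p and FDR, are treated as a score of no fixed range. No counts are held, so depth and its precision are unknown.

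Members were taken by symbol. Partners were found with bedtools 2.31.1 on exon blocks, with at least 1 shared base and strand ignored, and tables were handled with Python 3.11.15 (SciPy 1.17.1, numpy 2.4.6, pandas 2.3.3, matplotlib 3.10.9). Gene spans came from RefSeq (GRCh38.p14), by symbol or unique older symbol, which placed 88.4% and 88.2% of peaks. RefSeq gives 1 span per gene here. Partner and place calls were tested on simulated data and were right for 2000 of 2000 peaks each. The simulated peaks had 1 block each and a gene of their own. Peaks of several blocks or with several partners were therefore not covered. Named were all members, pathway genes in 1 list alone and the 4 shared ones with the best lower rank by fold; other pathway genes and markers are named from their counts, after these were seen. In the log10 p column, 2 shNC and 1 shALKBH5 cells held no number and were ranked strongest. The members and lists were chosen with earlier results of these data known. Alternatives were other overlaps, strand, a stricter fold, equal list lengths, merged peaks, RefSeq spans and other distances.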

Additional observations from a re-analysis of the deposited data

How the results depend on the processing

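Of 70 alternative values of 12 results, 60 stayed within 1.5 times the value as reported. All 8 member genes kept a peak in both lists with a stricter fold and with equal list lengths. RefSeq spans could not lower this count, because each member has peaks on its own span in both lists. The other overlaps, the strand rule and merging cannot change this count or that of the pathway genes. Those values among the 60 were therefore fixed in advance. A reciprocal overlap of 50% raised the member peaks without a partner to 5 in each list, because the CFLAR places with a small overlap and the split CFLAR peak lost their partners. It also raised those of the 52 pathway genes to 8 for shNC and 17 for shALKBH5 and the share over all shNC peaks to 22.2%. Counting peaks within 200 bp as shared, or merging peaks of 1 gene within 100 bp, lowered the member peaks of shNC without a partner to 1. The stricter fold gave 3 for shNC and 4 for shALKBH5. It removed an shNC peak of TNFRSF10B (fold 1.95) and an shALKBH5 peak of CASP2 (fold 2.0), so their partners in the other list stood alone. With lists of equal length by p, the pathway peaks of shALKBH5 without a partner fell to 6. With limits of 1000 bp from the start and 2000 bp from the end, member peaks at the gene end rose to 5 for shNC and 6 for shALKBH5. The FADD start peak had no partner under any of the 3 overlap rules, none of which could reach the nearest shNC peak, 2683 bases away. RefSeq spans were not applied to the shares over all peaks, which do not depend on genes. No paired analysis was possible because each condition has 1 list. Depth is unknown, so whether a peak listed once is absent or only under the limit of the other list cannot be told.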
